A study of Mus musculus with 6 samples.

Results

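Interferon-stimulated genes were followed in B cell progenitors from the bone marrow of old and young BALB/c mice, an inbred laboratory strain. The genes are a list of 39 chosen by name, and each is represented by the probe set of its own with the highest mean. Of the 39, 36 had such a probe set, among 19938 genes on the array. Isg15 and Gbp2 share their probe sets with another gene, no probe set was paired with Ifi44, and these 3 were left out. Pro- and pre-B cells, stages around rearrangement of the immunoglobulin heavy chain gene, were sorted and pooled without further treatment. The old group (24 months) and the young group (2 months) have 3 arrays each, every one made from 100 ng of RNA, and age was the only difference between the groups that the labels give. The labels do not tell single animals from pools, so a p-value here measures only how far these arrays spread, which may be technical. All levels are log2 of the deposited intensity, differences are old minus young, and levels are compared within a gene and not between genes.

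Interferons are cytokines that cells release on sensing foreign nucleic acid. Binding of type I interferon to its receptor activates the kinases Jak1 and Tyk2, and a complex that holds Stat2 and Irf9 then binds the interferon-stimulated response element (ISRE) in the promoters of target genes. Type II interferon acts through another element (GAS). The products of the target genes detect viral RNA, degrade or modify it, block entry and release of viruses, and tune the pathway itself, and a low tonic level of many of them is present in blood progenitors without infection. The title of the series links inflammation in aging with oncogenic selection of early B lineage cells, so the question for these genes is whether their transcripts differ between old and young progenitors.

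The promoters show what the genes share beyond the choice by name. Windows of 300 bases, from 250 before to 50 after the start of transcription (RefSeq, GRCm38.p6), were at hand for 30 of the 39 genes. The core of the ISRE, searched on both strands as GAAA, any 2 bases and GAAA again (TTTC, any 2 bases and TTTC on the other strand), was present in 13 of 30 genes (43.3%), against 3.99% of all 27025 genes with a window. The GAS letters TTCNNNGAA, which read the same on both strands, were present in 7 of 30 (23.3%), against 9.55% of all genes. In Bst2 and Ifitm3 the GAS letters overlap an ISRE match. The 250 bases before the start are printed for 3 genes that differ in level: Ifit1, which stood within background on all 6 arrays, and Bst2 and Stat2, which stood above it on all young arrays. They run 5′ to 3′ on the strand of the gene, with each ISRE match in capitals, at chr19:34640639-34640888 (plus strand), chr8:71537473-71537722 (minus strand) and chr10:128270248-128270497 (plus strand).
Ifit1: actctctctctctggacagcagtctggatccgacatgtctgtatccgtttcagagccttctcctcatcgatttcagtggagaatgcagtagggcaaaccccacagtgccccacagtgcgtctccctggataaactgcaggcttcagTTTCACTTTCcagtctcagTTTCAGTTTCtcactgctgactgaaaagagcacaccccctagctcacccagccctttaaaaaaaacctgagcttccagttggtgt
Bst2: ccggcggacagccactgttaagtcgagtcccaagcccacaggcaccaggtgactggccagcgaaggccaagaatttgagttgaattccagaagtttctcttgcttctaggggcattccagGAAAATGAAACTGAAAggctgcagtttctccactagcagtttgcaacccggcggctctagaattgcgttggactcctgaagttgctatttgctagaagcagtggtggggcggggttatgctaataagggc
Stat2: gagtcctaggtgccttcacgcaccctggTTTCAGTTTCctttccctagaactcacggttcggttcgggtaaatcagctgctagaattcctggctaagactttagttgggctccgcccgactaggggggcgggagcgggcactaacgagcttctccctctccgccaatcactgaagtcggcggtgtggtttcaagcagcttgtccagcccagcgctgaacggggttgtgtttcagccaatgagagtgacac

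In Ifit1 the matches begin 104 and 85 bases before the start, in Bst2 130 and 124 bases before it, as overlapping copies, and in Stat2 222 bases before it. Shorter stretches around the matches of 6 further genes show how the core varies, each with 10 bases on either side. They lie at chr19:34583363-34583426 (Ifit3), chr4:156200865-156200906 (Isg15), chr3:142559989-142560024 (Gbp3), chr7:140955988-140956017 (Ifitm2), chr5:120777715-120777744 (Oas3) and chr12:26456553-26456582 (Rsad2).
Ifit3: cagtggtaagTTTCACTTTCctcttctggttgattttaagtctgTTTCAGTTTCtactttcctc
Isg15: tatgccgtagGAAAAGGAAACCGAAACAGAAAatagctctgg
Gbp3: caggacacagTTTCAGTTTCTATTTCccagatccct
Ifitm2: ccaccaacagGAAAAGGAAAttgctagaga
Oas3: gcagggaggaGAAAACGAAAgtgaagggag
Rsad2: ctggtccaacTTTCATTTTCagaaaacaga

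Ifit1 and Ifit3 carry the same 2 versions of the core, TTTCACTTTC and TTTCAGTTTC, in the same order. Isg15, which has no value here, holds 3 overlapping copies. The remaining matches are those of Gbp2, and of Ifitm3, Ddx58 and Ifih1, where they lie just after the start. Of the measured genes with a window, 6 of 19 that stood above background on all young arrays held the ISRE letters, as did 5 of 7 that stood above it on no array. For the GAS letters the counts were 7 of 19 and 0 of 7. The match is a description of letters and not of binding.

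No detection calls were used, so background was taken from 1375 probe sets of genes for smell and pheromone receptors (symbols starting Olfr or Vmn), and a gene counts as above the receptor level of an array when it passes their 95th percentile there. That level was 6.30, 6.41 and 5.18 on the old arrays in order of replicate number, and 4.81, 4.84 and 4.60 on the young arrays. Old replicates 1 and 2 stand apart from the other arrays in this and in their narrower spread of values, with interquartile ranges of 1.41 and 1.40 against 2.44 to 2.98. Of 11 measured markers of B cell progenitors, 11 lay above the receptor level on each young array and 10 on old replicate 3, but 4 and 3 on the remaining old arrays. Vpreb1 and Igll1, the chains of the surrogate light chain, were above it on all 6 arrays. What sets the signal of old replicates 1 and 2 apart was not tested, and in sorted bulk RNA fewer cells of a type and less RNA per cell cannot be told apart. Results that rest on these arrays are therefore given with and without them.

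On the young arrays most of the interferon-stimulated genes had measurable transcripts. On young replicates 1, 2 and 3, 25, 25 and 27 of 36 lay above the receptor level, against 50.9%, 50.4% and 55.1% of all genes. On old replicate 3 the count was 24 (44.6% of all genes), and on old replicates 1 and 2 it was 6 and 5 (12.3% and 10.2% of all genes). The genes above it on all 6 arrays were Adar, Ifitm1, Ifitm2 and Samd9l. Ifih1, Dhx58, Ifit1, Ifit3, Oas3, Oasl2, Mx1, Rsad2 and Cmpk2 lay above it on no array, so that their transcripts were not detectable by this measure in either age group. Their values ran from 3.42 to 4.56 on the young arrays and from 3.52 to 6.09 on the old arrays. Where the values of a group lie within background, a fitted difference is set against background on that side, and no size of change is read from it. A bound given as at least holds on the deposited scale alone, on which old replicates 1 and 2 have the narrower spread of values.

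**Figure D1:**
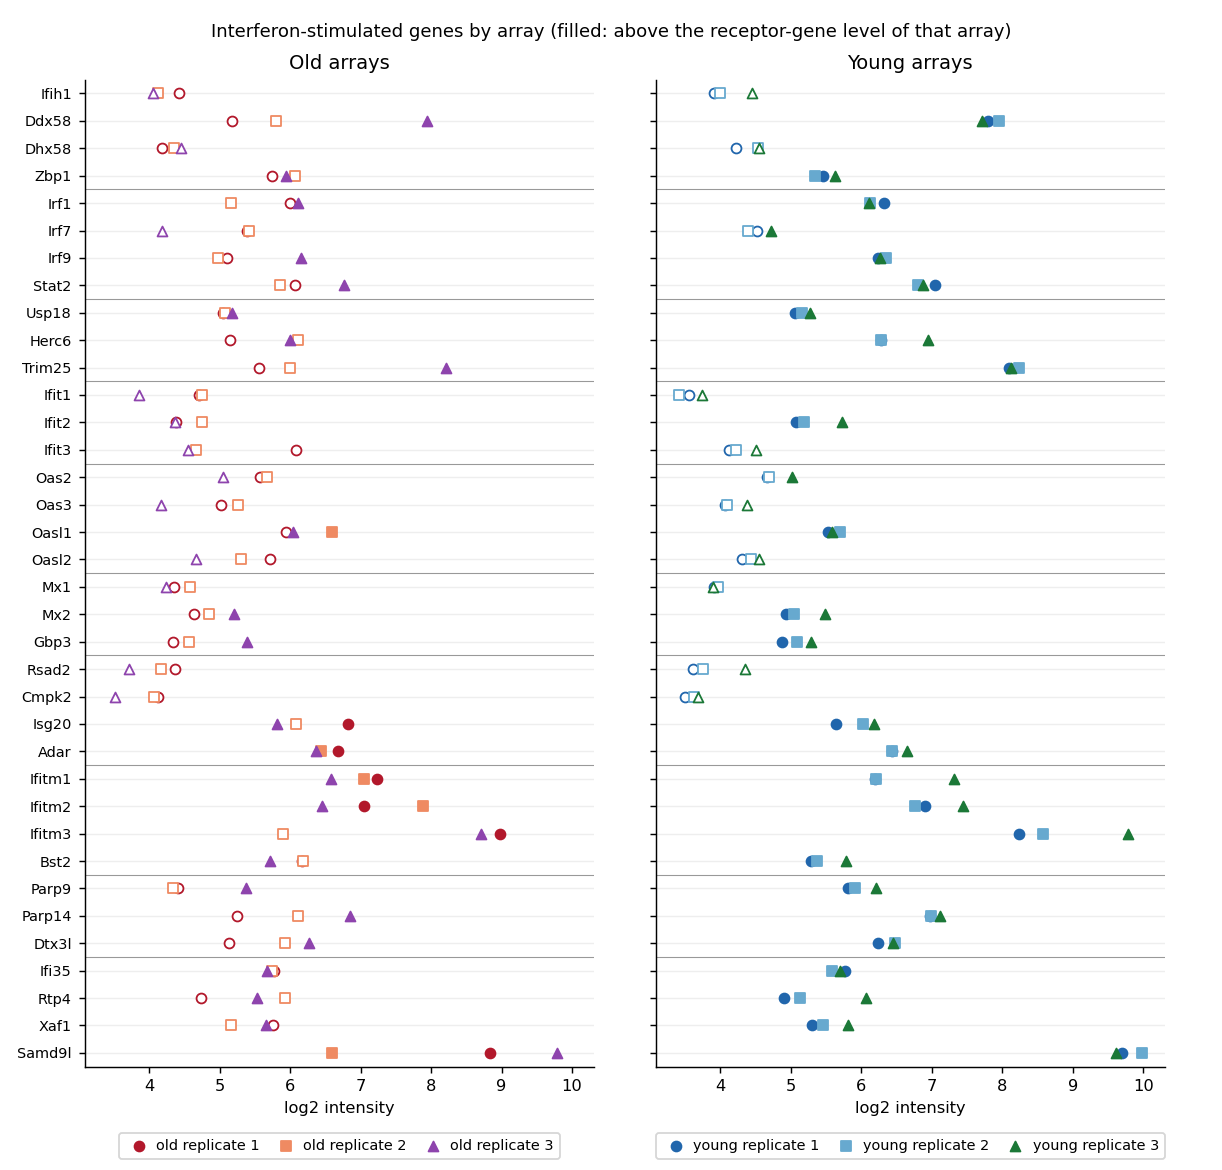
Log2 intensity (x axis) of the 36 interferon-stimulated genes (rows, grouped by role) on the 3 old arrays (left) and the 3 young arrays (right). Filled symbols lie above the receptor-gene level of their array and open symbols within it. Of 36 genes 25 to 27 are filled on each young array, 24 on old replicate 3 and 6 and 5 on old replicates 1 and 2.

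**Figure D2:**
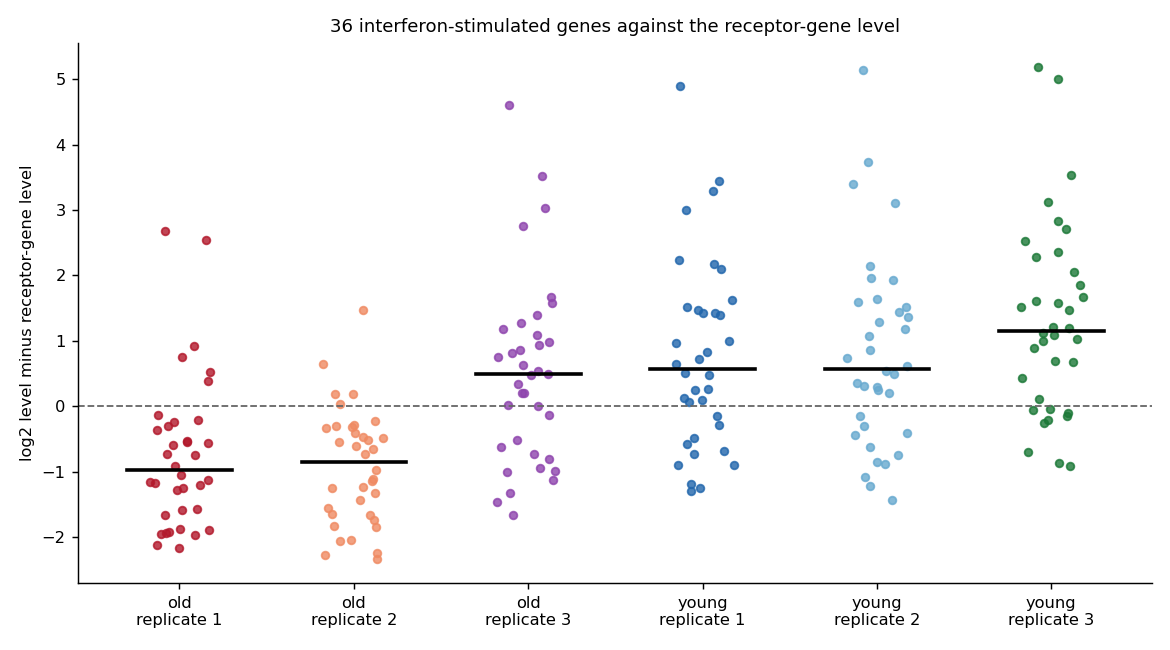
Level of each of the 36 genes minus the receptor-gene level of the same array (y axis, log2) on each of the 6 arrays (x axis). Points are genes, black bars their medians and the dashed line the receptor level. The medians lie at -0.98 and -0.86 on old replicates 1 and 2, and at 0.49, 0.58, 0.57 and 1.16 on the other 4 arrays in the order drawn.

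No gene of the list was called different between the age groups with all 6 arrays. With limma at an adjusted p under 0.05, 0 of 36 passed, as did 0 of the 23410 probe sets tested (0.00%). At an unadjusted p under 0.05 there were 8 of 36 (22.2%), below the 46.8% of all probe sets. The median difference was 0.02 on the log2 scale, against 0.37 for all genes, and 19 of 36 genes (52.8%) had a higher old mean, against 63.3% of all genes. The split depends on the scaling, since 11 of 36 had a higher old mean after centring each array on its median and 14 after quantile normalization. By direction under the deposited scale and both of these scalings, 16 genes (44.4%) were lower in the old group, 10 (27.8%) higher and 10 changed sign, against 32.0% lower and 44.8% higher of all genes. Of all genes above the receptor level on all young arrays, as 25 of the 36 are, 60.8% were lower under all 3 scalings. When old replicate 3 was left out, limma called 22 of 36 (61.1%, against 82.4% of all probe sets), with 11 higher (52.2% of all probe sets) and 11 lower (30.2%). Leaving out old replicates 1 and 2 instead left it at 0 of 36, beside 7.00% of all probe sets (1.76% higher and 5.24% lower), with 6 genes at an unadjusted p under 0.05 (16.7%, against 27.5%). In that fit the lone old array is assumed to vary like the young ones. With estimated array weights 24 of 36 were called (66.7%, against 85.4% of all probe sets), and the weight of old replicate 3 was 0.0447, so that this fit comes close to leaving it out.

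On the deposited scale, the groups of arrays did not overlap at 13 of the 36 genes. For 7 of them the old arrays were higher (19.4%, against 36.1% of all probe sets) and for 6 lower (16.7%, against 22.9%). Neither share exceeds the background. The lower genes were Irf9, Stat2, Herc6, Ifit2, Parp9 and Parp14, all above the receptor level on the 3 young arrays. The higher genes were Zbp1, Ifit1, Ifit3, Oas2, Oasl1, Oasl2 and Mx1, of which Zbp1 and Oasl1 alone were above it on all young arrays. Beside these, the median of the receptor probe sets themselves was 4.22, 4.26 and 3.37 on the old arrays and 3.24, 3.24 and 3.11 on the young arrays, and its part in the higher values of dim genes was not tested.

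**Figure D3:**
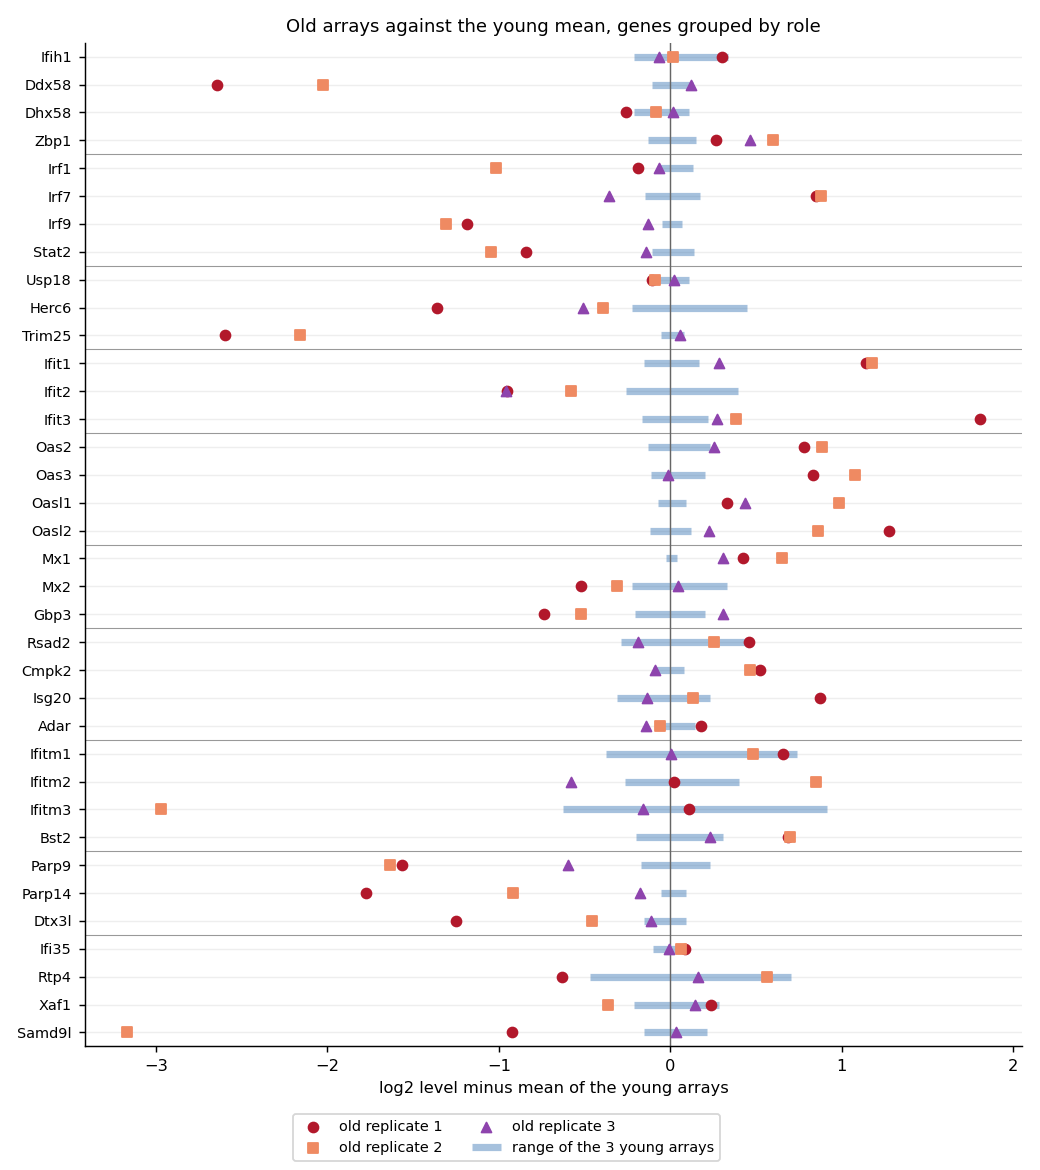
Log2 level of each gene on each old array minus the mean of the 3 young arrays (x axis), for 36 genes grouped by role (rows). Symbols are the old arrays and blue bars the range of the young arrays. Ddx58 and Trim25 lie far below 0 on old replicates 1 and 2 and within the young range on old replicate 3, whereas Parp9 and Ifit2 lie below the young range on all 3 old arrays.

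Among the sensors, Ddx58, which encodes the RNA sensor RIG-I, stood at 5.18, 5.80 and 7.95 on old replicates 1, 2 and 3 and at 7.80, 7.95 and 7.72 on the young replicates. Old replicate 3 lay within the young range, and the other old arrays lay within background. Against the receptor level, Ddx58 was there at least 1.52 and 1.42 log2 units under the young mean. The mean difference of -1.52 ± 0.67 (SE) had an adjusted p of 0.114 with limma. Zbp1, a sensor of left-handed double helices that can start cell death, was at 5.74, 6.08 and 5.94 on the old and 5.46, 5.34 and 5.63 on the young arrays. All 3 old values were above the young ones, the first pair within background. The difference of 0.44 ± 0.21 (SE) did not pass (adjusted p = 0.128, limma), and the median difference of all genes was 0.37. After centring, the difference of Zbp1 was 0.097, with old replicate 1 below the young range and old replicate 2 within it. After quantile normalization it was 0.60, with every old array above the young range. Ifih1 (MDA5) and Dhx58 (LGP2), the relatives of RIG-I, were within background throughout.

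The transcription factors of the pathway were above background on the young arrays, apart from Irf7. Stat2 stood at 6.07, 5.86 and 6.76 on the old and 7.04, 6.80 and 6.88 on the young arrays, a difference of -0.68 ± 0.29 (SE; adjusted p = 0.108, limma). Irf9, its partner on the ISRE, stood at 5.10, 4.98 and 6.16 against 6.24, 6.36 and 6.27, a difference of -0.87 ± 0.34 (SE; adjusted p = 0.102, limma). In both genes old replicate 3 was just below the lowest young array, by less than it was above the other old arrays, which lay within background. Against the receptor level, Stat2 was at least 0.60 and 0.50 lower on old replicates 1 and 2. By rank among all genes, it stood there at percentiles 81.9 and 76.1, against 79.25 to 82.68 on the young arrays. After quantile normalization its difference was -0.19. Irf1, induced by both interferon types, was at 6.0, 5.17 and 6.12 on the old and 6.32, 6.13 and 6.11 on the young arrays. Its groups overlap, and its values on old replicates 1 and 2 were within background. Irf7, which amplifies interferon production, was above the receptor level only on young replicate 3, at 4.71, and its other young values were 4.52 and 4.40. On the old arrays it was at 5.39, 5.42 and 4.19, all within background.

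Of the genes that attach or remove Isg15, a ubiquitin-like protein, Herc6 is the main ligase in mice and Usp18 the protease that also restrains the receptor. Usp18 hardly varied, at 5.06, 5.08 and 5.18 on the old and 5.06, 5.16 and 5.28 on the young arrays. Its values on old replicates 1 and 2 were within background, and on old replicate 3 it passed the receptor level by only 0.0006. Herc6 was at 5.15, 6.12 and 6.0 on the old and 6.28, 6.29 and 6.95 on the young arrays. Its groups did not overlap on the deposited scale, but old replicates 1 and 2 were within background. The fit did not call it (adjusted p = 0.120, limma). By rank among all genes, Herc6 stood there at percentiles 48.3 and 83.5, against 73.06 to 79.98 on the young arrays. After quantile normalization old replicate 2 lay within the young range. Trim25, a ubiquitin ligase that acts with RIG-I, followed the pattern of Ddx58, at 5.56, 6.0 and 8.21 against 8.10, 8.24 and 8.13. On old replicates 1 and 2 it was at least 1.85 and 1.75 lower against the receptor level, and on old replicate 3 it was within the young range.

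The IFIT proteins bind the ends of foreign RNA. Ifit2 was the member of the family above background in young cells, at 5.07, 5.20 and 5.73, whereas the old arrays gave 4.38, 4.75 and 4.37, all within background. The adjusted p was 0.101 (limma), and no size is read since all old values lie within background. Ifit1 and Ifit3 were within background on all arrays, at 4.71, 4.75 and 3.85 and at 6.09, 4.67 and 4.56 on the old arrays.

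The OAS enzymes make an oligonucleotide that activates an RNase. All 4 measured members had higher old means on the deposited scale, after centring and after quantile normalization, but Oas3 lay just below the young mean on old replicate 3 taken alone. Of all genes above the receptor level on no array, as Oas3 and Oasl2 are, 97.6% had a higher old mean. Oasl1, a catalytically inactive relative that restrains Irf7 translation, was the member above background on all young arrays, at 5.53, 5.70 and 5.59. On the old arrays it was at 5.94, 6.59 and 6.04, the first within background, a difference of 0.58 ± 0.25 (SE; adjusted p = 0.107, limma). After centring the difference was 0.24, with old replicate 1 below the young range, and after quantile normalization it was 0.95. Oas2 was above the receptor level on young replicate 3 alone, at 5.03, and stood at 4.66 and 4.69 on the other young arrays and 5.58, 5.68 and 5.05 on the old ones. Oas3 and Oasl2 were within background on every array.

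Of the interferon-induced GTPases, Mx1, of which many inbred laboratory strains carry a defective allele, lay between 3.90 and 3.97 on the young arrays and at 4.35, 4.58 and 4.23 on the old ones, all within background. The sign of its difference turned under quantile normalization. Mx2 stood at 4.64, 4.85 and 5.20 on the old and 4.93, 5.05 and 5.49 on the young arrays. Gbp3, a guanylate-binding protein, was at 4.34, 4.56 and 5.39 against 4.87, 5.09 and 5.29. In both, the groups overlapped and old replicates 1 and 2 were within background.

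Among the enzymes that act on nucleotides and RNA, Adar, which edits adenosine in double-stranded RNA, was the steadiest of those above background on all arrays. It stood at 6.68, 6.45 and 6.36 on the old and 6.43, 6.43 and 6.65 on the young arrays, a difference of -0.01 ± 0.21 (SE) that turned to 0.72 after quantile normalization. Isg20, an RNA exonuclease, was at 6.82, 6.08 and 5.81 on the old and 5.64, 6.03 and 6.18 on the young arrays, with overlap and old replicate 2 within background. Rsad2 (viperin) and its neighbour Cmpk2, which together supply a chain-terminating nucleotide, were within background on every array.

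Of the membrane proteins 4 of 4 lay above the receptor level on every young array, and 3 and 2 of 4 on old replicates 1 and 2. The IFITM proteins block the fusion of viruses with cell membranes. Ifitm1 stood at 7.23, 7.05 and 6.58 on the old and 6.20, 6.21 and 7.31 on the young arrays. Ifitm2 stood at 7.06, 7.88 and 6.45 against 6.90, 6.77 and 7.44. Both were above the receptor level on all arrays, with overlapping groups. Ifitm3 was split within the old group, at 8.98 and 8.71 on old replicates 1 and 3 but 5.90, within background, on old replicate 2. Its young values were 8.24, 8.58 and 9.78, so that old replicate 2 was at least 2.46 lower than the young mean against the receptor level. Ifitm1 has 2 probe sets and Ifitm2 has 3, the IFITM genes are close relatives, and whether their probe sets share signal was not tested. Bst2 (tetherin), which holds budding viruses on the cell surface, was at 6.17, 6.18 and 5.72 on the old and 5.29, 5.38 and 5.79 on the young arrays. Its values on old replicates 1 and 2 were within background, and old replicate 3 lay within the young range.

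Parp9, Dtx3l and Parp14, which modify proteins with ADP-ribose and ubiquitin, were lower in the old group under all 3 scalings. Parp9 stood at 4.42, 4.34 and 5.38 on the old and 5.81, 5.91 and 6.21 on the young arrays, without overlap. The difference of -1.27 ± 0.33 (SE; adjusted p = 0.101, limma) rests in part on old replicates 1 and 2, which lay within background. Parp14 stood at 5.25, 6.11 and 6.85 against 6.98, 6.99 and 7.12, also without overlap (adjusted p = 0.107, limma). Old replicates 1 and 2 were within background, and against the receptor level they were at least 0.72 and 0.62 log2 units under the young mean. By rank among all genes, Parp14 stood there at percentiles 52.7 and 83.4, against 81.95 to 82.0 on the young arrays. Dtx3l, the partner of Parp9, was at 5.14, 5.93 and 6.27 against 6.23, 6.48 and 6.45. Old replicate 3 lay within the young range and the other old arrays within background. By rank, Dtx3l stood on old replicates 1 and 2 at percentiles 47.9 and 78.2, against 72.38 to 75.98 on the young arrays.

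Of the other effectors, Samd9l, a regulator of protein synthesis and growth in blood cells, was at 8.84, 6.59 and 9.79 on the old and 9.70, 9.98 and 9.61 on the young arrays. Old replicate 3 was within the young range, and the old arrays differed among themselves by more than the group means did (-1.35 ± 0.76, SE; adjusted p = 0.168, limma). Ifi35 varied least of this set, at 5.77, 5.75 and 5.68 against 5.78, 5.59 and 5.70. Rtp4 and Xaf1 overlapped between the groups, at 4.73, 5.93 and 5.53 against 4.90, 5.13 and 6.07 for Rtp4 and 5.76, 5.16 and 5.67 against 5.31, 5.45 and 5.81 for Xaf1. For Ifi35, Rtp4 and Xaf1 the values on old replicates 1 and 2 were within background.

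Genes bright in young cells were dim on old replicates 1 and 2 in general. Of 5012 genes whose lowest young value exceeds the receptor level of old replicate 1, 76.7% lay within that level there, and of 4730 such genes for old replicate 2 it was 75.9%. Among the 8 interferon-stimulated genes with such young values it was 4 and 5. Ddx58, Trim25, Stat2 and Parp14 were the 4 on old replicate 1, joined by Ifitm3 on old replicate 2. Both shares lie below those of all genes at such levels, but with only 8 genes no difference of the list from all genes is read from them.

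Old replicate 3, whose signal was close to that of the young arrays, gives the comparison least touched by this. There the median difference from the young mean was -0.0029 on the log2 scale (0.04 for all genes). Of 36 genes, 19 lay within the young range, 8 above it and 9 below it, against 40.9% above and 32.2% below for all genes. The 9 below were Irf7, Irf9, Stat2, Herc6, Ifit2, Adar, Ifitm2, Parp9 and Parp14. After centring, 3 of 36 lay above the young range and 17 below it, against 22.3% and 47.7% of all genes. After quantile normalization 8 lay above and 9 below, against 31.4% and 34.6%. Then Irf9, Stat2 and Adar lay within the young range and Parp14 above it. Irf7, Herc6, Ifit2, Ifitm2 and Parp9 stayed below it after either scaling, with Irf7 and Ifit2 within background on old replicate 3. Of the 8 above, Zbp1, Oasl1 and Mx1 stayed above under both scalings, but Mx1 was within background on every array. Ifit1, Ifit3, Oas2 and Oasl2, also among the 8, were within background on old replicate 3. In the fit of old replicate 3 alone, Parp9 differed by -0.60 ± 0.17 (SE; adjusted p = 0.0796, limma). For Ifit2, which lay within background on old replicate 3, the adjusted p was 0.0570 (limma) and no size is read. Zbp1 differed by 0.47 ± 0.15 (SE; adjusted p = 0.0991, limma) and Oasl1 by 0.43 ± 0.13 (SE; adjusted p = 0.0891, limma). None passed, and a single old array carries no estimate of its own spread.

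Within the young group, young replicate 3 had the highest value of the young arrays at 26 of 36 genes, against 37.0% of all genes. After quantile normalization the count was 27 of 36, against 36.0%. Among genes above the receptor level on all young arrays, it was highest at 16 of 25 interferon-stimulated genes and 51.6% of all. It exceeded the mean of the other young arrays by at least 0.5 on the log2 scale at 6 of those 25 genes, against 3.99% of all. Those 6 were Ifitm3 (by 1.37), Ifitm1 (1.11), Rtp4 (1.05), Herc6 (0.67), Ifitm2 (0.60) and Ifit2 (0.59). By role, young replicate 3 was highest of the young arrays at 4 of 4 membrane proteins, 4 of 4 nucleotide and RNA enzymes, 3 of 3 IFIT genes, 3 of 4 OAS genes, 3 of 4 sensors, 2 of 3 genes in each of the Isg15, GTPase and Parp9 groups, 2 of 4 other effectors and 1 of 4 transcription factors, Irf7. The counts by role include the 9 genes above the receptor level on no array, for which a rank is one among background values. The pattern was noticed in these values, concerns 1 array and has no test.

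Markers of other marrow cells moved with young replicate 3. Of 9 measured markers of monocytes and macrophages 8 were highest there among the young arrays, as were 10 of 10 neutrophil markers. The summed intensity of the monocyte markers was 479, 438 and 775 on young replicates 1 to 3, and that of the neutrophil markers 8531, 8346 and 10750. On the old arrays the sums ran from 309 to 396 and from 2084 to 8796. Ccr2, a chemokine receptor of monocytes, was at 4.62, 4.64 and 6.14 on the young arrays, and Mpo, an enzyme of early neutrophils, at 7.60, 7.34 and 8.32. For B cell progenitor markers the sums were 9594, 9097 and 9173, and 3 of 11 were highest on young replicate 3. Among those 3 was Dntt, the polymerase that adds bases at heavy chain joints in pro-B cells, at 6.69, 6.59 and 8.18. On young replicate 3, 7 of 9 monocyte and macrophage markers passed the receptor level, against 5 of 9 on each of the other young arrays. Of 6 measured markers of plasmacytoid dendritic cells, which carry Bst2 and produce interferon, 4 were highest on young replicate 3, and their summed intensity was 886, 925 and 1036 on the young and 436 to 881 on the old arrays. Of the remaining lists, 4 of 4 erythroid, 4 of 7 T cell, 2 of 8 NK cell and 1 of 7 plasma cell markers were highest there. The part of these cells in the levels of interferon-stimulated genes was not tested.

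**Figure D4:**
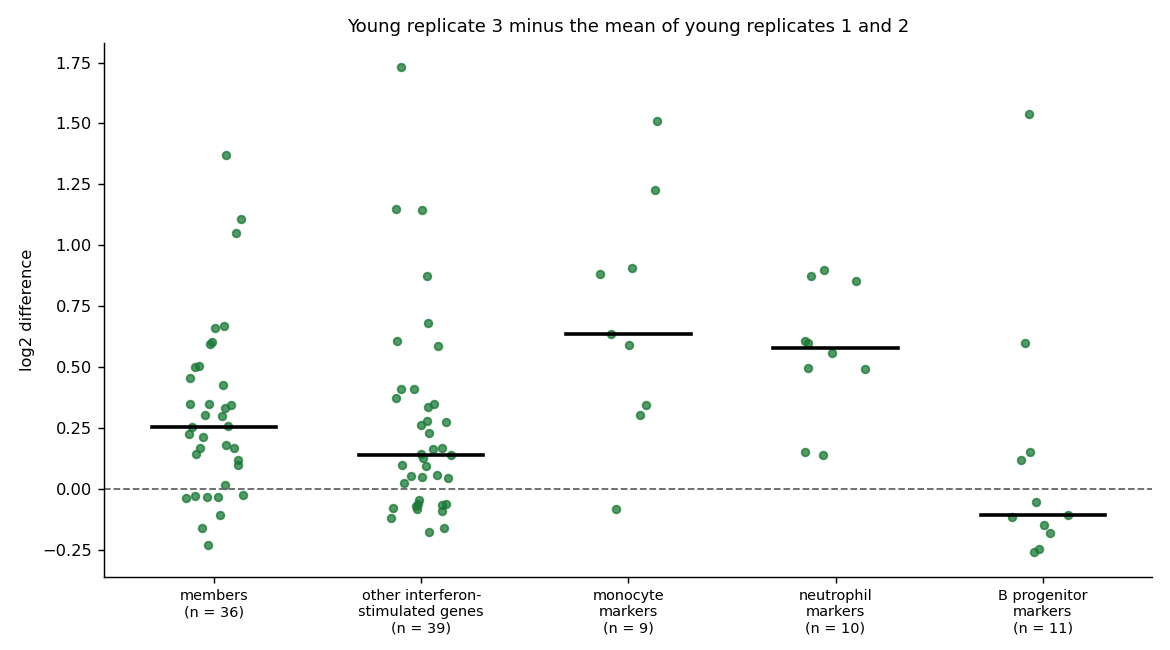
Difference on the log2 scale (y axis) between young replicate 3 and the mean of young replicates 1 and 2, for each gene of 5 lists (x axis). Points are genes and black bars medians, which are 0.26 for the 36 interferon-stimulated genes, 0.14 for 39 others, 0.64 for monocyte markers, 0.58 for neutrophil markers and -0.11 for B cell progenitor markers.

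Of 104 other listed genes of the interferon pathway and further interferon targets, 85 were measured and 0 passed the threshold with all arrays (limma). At an unadjusted p under 0.05 there were 35 of 85 (41.2%, against 46.8% of all probe sets). Without old replicate 3, 66 of 85 passed (82.4% of all probe sets), and without old replicates 1 and 2, 3 did (7.00%). These 3 were the interferon genes Ifna5 (0.72 ± 0.16, SE; adjusted p = 0.0436, limma) and Ifnz (0.59 ± 0.14, SE; adjusted p = 0.0494, limma), and Il10rb, a receptor chain for type III interferon and interleukin 10 (-0.65 ± 0.13, SE; adjusted p = 0.0314, limma).

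The ligand probe sets had higher old means at 14 of 14 measured genes on the deposited scale (63.3% of all genes), and at 9 under all 3 scalings (44.8% of all genes). Of all genes above the receptor level on no array, as 9 of these 14 are, 97.6% had a higher old mean. Ifna5 stood at 8.47, 8.98 and 7.27 on the old and 6.56, 6.72 and 6.38 on the young arrays. Ifnz stood at 7.79, 7.92 and 5.92 against 5.22, 5.44 and 5.31, and Ifna9 and Ifna14 were likewise higher on all old arrays. These 4 genes and Ifnl2 were above the receptor level on all 6 arrays, while 9 ligand genes, Ifnb1 and Ifng among them, were above it on none. Many type I interferon genes, the Ifna genes among them, are close copies of each other, so signal of a named copy is uncertain.

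The receptor chains and kinases had lower old means at 8 of 9 genes under all 3 scalings, against 32.0% of all genes and 60.8% of the genes above the receptor level on all young arrays. None of the 9 lay above that level on old replicates 1 and 2. Jak2 stood at 4.07, 3.90 and 6.08 on the old and 6.48, 6.64 and 6.87 on the young arrays (-1.98 ± 0.58, SE; adjusted p = 0.101, limma). Ifngr2, a chain of the type II receptor, was at 5.76, 5.89 and 7.25 against 7.57, 7.59 and 7.75. In both genes old replicate 3 was below the lowest young array, by less than the other old arrays, which were within background. Of 7 other nuclear factors 5 were lower under all 3 scalings, among them Irf3, at 5.93, 5.71 and 6.23 against 6.82, 6.67 and 6.85. Irf8 and Irf4, factors of light chain rearrangement, were below the young arrays on all old arrays, with old replicate 3 at 6.89 and 7.99 against lowest young values of 7.13 and 8.02. After quantile normalization Irf4 on old replicate 3 lay above the young range. For Irf3, Irf8 and Irf4 the values on old replicates 1 and 2 were within background.

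Among the sensing adaptors and kinases 2 of 9 were lower and 3 higher under all 3 scalings, against 32.0% lower and 44.8% higher of all genes. Tbk1, the kinase of Irf3, stood at 4.90, 5.10 and 7.83 on the old and 7.91, 7.99 and 8.13 on the young arrays, with old replicates 1 and 2 within background. Ticam1, the adaptor of Tlr3, was at 6.31, 6.29 and 5.27 against 5.14, 5.15 and 5.24. Its value on old replicate 2 was within background, and on old replicate 1 it passed the receptor level by only 0.0093. On old replicate 3 it was 0.098 above the young mean. Among 7 inhibitors 4 were lower and 1 higher. Socs3, the higher one, stood at 5.90, 5.87 and 5.04 against 4.93, 4.76 and 4.68, all old values within background. Of 39 further interferon targets 19 were lower, 6 higher and 14 changed sign with the scaling, and their median difference was -0.49 (0.37 for all genes). Of all genes above the receptor level on all young arrays, 60.8% were lower under all 3 scalings. Of these targets 29 of 39 were at such levels, as were 6 of the 7 inhibitors. Trim34a stood at 6.64, 6.60 and 7.41 against 7.81, 7.76 and 7.74, above the receptor level on all arrays (-0.89 ± 0.28, SE; adjusted p = 0.101, limma), and its sign turned under quantile normalization. Lgals9, a galectin, stood at 7.17, 6.70 and 9.62 against 9.64, 9.75 and 9.98 (-1.96 ± 0.72, SE; adjusted p = 0.101, limma). Parp10, which had the smallest p among the targets with a higher old mean, stood at 5.88, 5.89 and 5.43 against 5.26, 5.22 and 5.18 (adjusted p = 0.111, limma). Its values on old replicates 1 and 2 were within background.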

How the data were processed

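RNA of sorted pro-B and pre-B cells was measured on 6 whole-transcript arrays. The authors deposited linear probe set intensities, 3.58 to 8502, and the submitters' processing notes name RMA as the tool, without its version. From these, log2 was taken and the 23410 of 28940 probe sets paired with a gene were fitted by age group with limma 3.58.1 in R 4.3.3 (moderated variances, 2-sided, Benjamini-Hochberg over all). The code recovered known differences in simulated data in which all arrays had the same noise. The old arrays here differ in their spread of values, so the simulation does not measure power in these data. Other steps used matplotlib 3.10.9, numpy 2.4.6, pandas 2.3.3 and Python 3.11.15.

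The members and lists were chosen with earlier results of these data known. Every member above the receptor level on at least 1 array is given by array, the others by range or count. Pathway genes named come from up to 4 per list and direction with the smallest unadjusted p and a value above that level on at least 1 array. Marker lists are given as counts; the markers named singly, and Ifnb1, Ifng and Ifnl2, were chosen after their values were seen.

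Same-numbered old and young arrays deviated together from their group means (r = 0.157, 0.150 and 0.279 over probe sets), so the replicate number was also fitted as a block. Old replicates 1 and 2 correlated almost as well with the other of these numbers (0.153 and 0.141). The number of arrays limits the precision.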

Additional observations from a re-analysis of the deposited data

How the results depend on the processing

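With the replicate number as a block, 0 members were called, and the block changed no call. Of the members, 24 of 36 were called with estimated array weights (66.7%, against 85.4% of all probe sets). With 1 array left out 0 to 22 were called, with 22 reached without old replicate 3 (61.1%, against 82.4% of all probe sets). Of the pathway genes, 67 of 85 were called with weights (85.4% of all probe sets). With 1 array left out 0 to 66 were called, with 66 reached without old replicate 3 (77.6%, against 82.4% of all probe sets). The estimation of weights stopped before its tolerance was met. The median member difference was -0.33 after centring, -0.14 after quantile normalization, -0.060 without dim probe sets (which leaves 31 members), and -0.071 to 0.11 with 1 array left out, and 11 members had a higher old mean after centring. At the 90th percentile of the receptor probe sets 11 and 14 members lay above it on old replicates 1 and 2. At the 99th percentile there were 2, 1 and 14 on the old arrays and 16 and 16 on young replicates 1 and 2.

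For genes within background the values that follow give a sign and no size of change. Signs turned after centring for Ifih1 (-0.26), Rsad2 (-0.17), Cmpk2 (-0.047), Isg20 (-0.056), Ifitm2 (-0.25), Ifi35 (-0.30), Rtp4 (-0.32) and Xaf1 (-0.34). After quantile normalization they turned for Ifih1 (-0.45), Mx1 (-0.10), Rsad2 (-0.36), Cmpk2 (-0.27), Adar (0.72), Rtp4 (-0.039) and Xaf1 (-0.049). They turned with weights for Xaf1 (-0.23) and with the mean of all probe sets for Ifitm2 (-0.14). Without old replicates 1 and 2 they turned for Ifih1 (-0.068), Ddx58 (0.12), Dhx58 (0.013), Irf7 (-0.36), Usp18 (0.018), Trim25 (0.056), Oas3 (-0.013), Mx2 (0.046), Gbp3 (0.31), Rsad2 (-0.19), Cmpk2 (-0.090), Isg20 (-0.14), Ifitm2 (-0.58), Ifi35 (-0.0095) and Samd9l (0.031). With 1 array left out, differences ran from -0.10 to 0.064 for Adar, -0.0047 to 0.090 for Ifi35, -0.027 to 0.25 for Ifih1, -0.28 to 0.43 for Ifitm2, -0.00020 to 0.50 for Isg20, -0.24 to 0.38 for Rtp4 and -0.11 to 0.19 for Xaf1. The cause was not tested.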
